A study of Arabidopsis thaliana with 2 samples.

Results

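Expression of 10 genes of the unfolded protein response was compared between mature pollen of ecotype Col-0 and of ecotype Ler-0 of Arabidopsis thaliana. The genes were taken by locus identifier: the sensors IRE1A (AT2G17520) and IRE1B (AT5G24360), the bZIP transcription factors BZIP60 (AT1G42990), BZIP28 (AT3G10800), BZIP17 (AT2G40950) and BZIP49 (AT3G56660), the NAC transcription factors NAC103 (AT5G64060) and NAC062 (AT3G49530), TIN1 (AT5G64510), and BI-1 (AT5G47120). All 10 were found among the 33322 nuclear loci listed for both libraries. Each ecotype was represented by 1 RNA sequencing library of pollen shaken from open flowers, with no transgene, mutation or treatment given in the labels, so no difference has a replicate check and no test between ecotypes was possible. Ecotype, plants, collection and library preparation cannot be told apart, and neither can the number of cells of a type and the RNA per cell.

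When unfolded proteins gather in the endoplasmic reticulum (ER), plant cells respond along arms that begin at the ER membrane. IRE1 proteins are kinases and ribonucleases that cut the BZIP60 messenger RNA, whose religated form encodes a nuclear transcription factor. BZIP28 and BZIP17 are held in the ER membrane, travel to the Golgi under stress, and are cut there by site-1 and site-2 proteases. Pollen is rich in secretory activity, and TIN1, a gene named for its induction by the glycosylation inhibitor tunicamycin, is known in Arabidopsis for an effect of its loss on the pollen surface.

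The sequence at which IRE1 acts is shown first, because a count per gene does not separate the cut and uncut forms of BZIP60 RNA and the values below are for both together. The coding strand of BZIP60 held 1 pair of CNGNNG motifs, the form of loop that IRE1 cuts, spaced so that cuts after the third base of each motif would remove 23 bases. The stretch lies in the coding sequence of the gene at chr1:16136257-16136321 on the minus strand (RefSeq, TAIR10.1), and capitals mark both motifs.
BZIP60 site: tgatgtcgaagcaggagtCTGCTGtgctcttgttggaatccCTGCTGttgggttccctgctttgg
The bases between those cuts read ctgtgctcttgttggaatccctg, bases 654 to 676 of the annotated transcript. The letter pattern by itself is common: 17.1% of 26711 protein-coding transcripts held such a pair, IRE1B and NAC103 among them.

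Promoter windows are shown for BZIP60, NAC062 and BI-1, which were past 2-fold in Ler-0, and for TIN1, the most abundant of the 10. Each window is the 250 bases before the annotated start of the gene in RefSeq TAIR10.1, a Col-0 sequence, so any Ler-0 differences are not seen. Motifs were searched on both strands, and capitals mark the fixed letters of every match: ERSE (CCAAT and CCACG with any 9 bases between), its plant form (CCAAT and CACG with any 10 bases between, which takes in every ERSE), ERSE-II (ATTGG and CCACG with 1 base between), the UPRE core (TGACGTGG), pUPRE-III (TCATCG), the motif CCACG by itself, and the core ACGT. The last 2 lie inside the UPRE core, whose reverse complement is CCACGTCA, so their matches overlap it, and CCACG also lies inside ERSE and ERSE-II.
BZIP60, chr1:16137464-16137713, minus strand: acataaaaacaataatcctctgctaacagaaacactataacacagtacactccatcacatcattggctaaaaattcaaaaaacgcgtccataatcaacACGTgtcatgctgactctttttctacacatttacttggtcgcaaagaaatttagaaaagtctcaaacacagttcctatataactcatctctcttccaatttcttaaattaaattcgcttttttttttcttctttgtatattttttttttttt
NAC062, chr3:18364960-18365209, minus strand: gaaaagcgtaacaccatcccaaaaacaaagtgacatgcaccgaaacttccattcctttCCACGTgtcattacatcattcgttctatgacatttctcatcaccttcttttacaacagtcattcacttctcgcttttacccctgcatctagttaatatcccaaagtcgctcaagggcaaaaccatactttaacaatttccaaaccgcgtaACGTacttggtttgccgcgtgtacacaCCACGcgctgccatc
BI-1, chr5:19135702-19135951, plus strand: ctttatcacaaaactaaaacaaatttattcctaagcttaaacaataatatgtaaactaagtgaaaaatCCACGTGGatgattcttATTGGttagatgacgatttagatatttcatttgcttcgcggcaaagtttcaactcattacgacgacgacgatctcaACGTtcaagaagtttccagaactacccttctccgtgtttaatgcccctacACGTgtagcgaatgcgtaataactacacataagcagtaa
TIN1, chr5:25784154-25784403, plus strand: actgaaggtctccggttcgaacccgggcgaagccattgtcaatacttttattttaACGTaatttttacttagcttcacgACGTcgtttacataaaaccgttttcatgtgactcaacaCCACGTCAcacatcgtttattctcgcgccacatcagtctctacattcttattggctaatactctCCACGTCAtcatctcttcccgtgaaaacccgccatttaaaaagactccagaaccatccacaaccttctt
The TIN1 window held 2 UPRE cores in reverse orientation, beginning 133 and 69 bases before the start. A UPRE core was present in 1.27% of 26710 protein-coding promoters and a pair or more in 0.0749%, and no other of the 10 windows held one. BI-1 held the palindrome CCACGTGG 182 bases before its start. On the opposite strand this palindrome, with the ATTGG that follows it, made up an ERSE with its first base at 179 bases, the only ERSE of either form in the 10 windows. ERSE was present in 0.307% of protein-coding promoters and the plant form in 0.700%. The ERSE spacings were set after the promoter windows had been seen, so the match in BI-1 is a description only. NAC062 held CCACG at 192 and 15 bases, a motif found at least once in 15.0% of promoters and 2 or more times in 2.85%. BZIP49, whose window is not shown, held it at 70 bases. The BZIP60 window held 1 match, an ACGT at 152 bases, as did 44.2% of promoters at any place. ERSE-II and pUPRE-III matches were in none (0) of the 10 windows and in 0.0636% and 6.38% of all. The first bases of the TIN1 window lie in the tRNA locus AT5G64505, with 0 Col-0 reads and 9 Ler-0 reads.

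Values are FPKM, which divides the reads of a gene by its length and the library total, and FPKM 1 or more in either library is called expressed. By that rule 7 of the 10 genes were expressed, beside 9562 of all 33322 loci. TIN1 was far above the rest at 157 FPKM for Col-0 and 253 for Ler-0, which made up 80.8% and 74.1% of the summed FPKM of the 10 genes. It ranked 415th and 308th of 27213 protein-coding loci. At the other end BZIP17, BZIP49 and NAC103 stayed under FPKM 1 in both libraries. The plot of levels by library shows a span of more than 3 orders of magnitude, with BZIP60, NAC062 and BI-1 visibly apart toward Ler-0. The points of BZIP49, on few reads, are about as far apart toward Col-0 as those of BI-1 toward Ler-0. The intervals of BZIP49 overlap, at 0.0851 to 0.210 FPKM for Col-0 and 0.0270 to 0.104 for Ler-0.

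**Figure D1:**
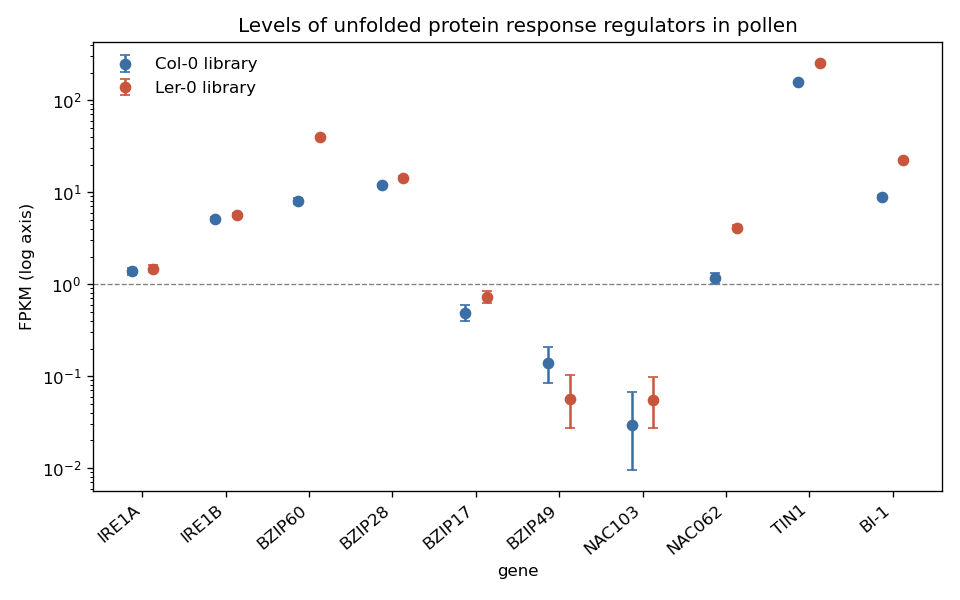
FPKM of the 10 genes (log axis) in the Col-0 and Ler-0 libraries, 1 library each. Bars are exact 95% Poisson intervals, which cover counting error only, and the dashed line marks FPKM 1. TIN1 stands highest at 157 and 253 FPKM and NAC103 is lowest in Col-0 at 0.0291.

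In the Col-0 library TIN1 was followed by BZIP28 (11.9 FPKM), BI-1 (8.88), BZIP60 (8.03), IRE1B (5.14), IRE1A (1.37), NAC062 (1.16), BZIP17 (0.485), BZIP49 (0.138) and NAC103. The intervals of BI-1 and BZIP60 overlapped, as did those of IRE1A and NAC062. In the Ler-0 library the order was TIN1, BZIP60 (39.6 FPKM), BI-1 (22.4), BZIP28 (14.4), IRE1B (5.69), NAC062 (4.11), IRE1A (1.47), BZIP17 (0.734), BZIP49 (0.0563) and NAC103 (0.0551), and only the intervals of the last pair overlapped. FPKM was computed on the gene span, introns included. With reads counted per kilobase of annotated exon instead, BI-1 (13.1) passed BZIP28 (11.9) in Col-0, and NAC103 (0.0708) passed BZIP49 (0.0541) in Ler-0, while the other places stayed as they were. The second change rests on 11 and 10 reads. Annotated exon length exceeded the deposited gene span for BZIP28 (2377 and 2367 bases) and BZIP49 (2078 and 1996 bases), since the gene ends differ. Whether reads in introns were counted is not given in the sources used here, so ratios between genes are given on both lengths.

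The IRE1 sensors had nearly the same level in both libraries. IRE1A (chromosome 2, 7617210 to 7621109, plus strand, TAIR10, as for the other gene positions) had 410 Col-0 reads and 511 Ler-0 reads, or 1.37 and 1.47 FPKM. Its ratio of Ler-0 over Col-0 FPKM was 1.07 (95% binomial interval 0.939 to 1.22, counting error only, as for each ratio below). IRE1B (chromosome 5, 8316440 to 8319981, plus strand) had 1393 reads and 1791 reads, a ratio of 1.11 (1.03 to 1.19). IRE1B was the more abundant sensor: its level per kilobase of exon was 3.23 times that of IRE1A for Col-0 and 3.33 times for Ler-0, and its FPKM 3.74 and 3.86 times.

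BZIP60, the transcription factor whose RNA IRE1 cuts, differed most. The gene (chromosome 1, 16135852 to 16137463, minus strand, 2 exons) had 990 reads and 8.03 FPKM (7.54 to 8.55) in Col-0. For Ler-0 it had 5673 reads and 39.6 FPKM (38.6 to 40.6). The ratio was 4.93 (4.60 to 5.28), and the intervals of the levels were far apart. Among protein-coding loci BZIP60 ranked 2561st for Col-0 and 983rd for Ler-0. Relative to BZIP28, its level per kilobase of exon was 0.886 times for Col-0 and 3.60 times for Ler-0, and its FPKM 0.674 and 2.74 times, so the more abundant of these bZIP transcripts was not the same in both libraries.

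Of the membrane-held bZIP factors, BZIP28 had the highest level. BZIP28 (chromosome 3, 3379254 to 3381621, plus strand) had 2158 reads and 11.9 FPKM in the Col-0 library. The 3041 reads and 14.4 FPKM of the Ler-0 library gave a ratio of 1.21 (1.15 to 1.28). BZIP17 (chromosome 2, 17087620 to 17090424, minus strand), which also acts in salt stress, had 104 and 183 reads, a ratio of 1.51 (1.18 to 1.94). BZIP49 (chromosome 3, 20986217 to 20988213, minus strand), the close relative of BZIP17, rested on 21 Col-0 reads and 10 Ler-0 reads, giving a ratio of 0.409 (0.172 to 0.908). BZIP49 was the only one of the 10 genes whose interval lay below 1, and it did so on few reads. Per kilobase of exon the BZIP28 level was 23.2 times that of BZIP17 for Col-0 and 18.6 times for Ler-0, and its FPKM 24.6 and 19.7 times.

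The NAC factors stood apart from each other. NAC062 (chromosome 3, 18362443 to 18364913, minus strand), a membrane-tethered factor that moves to the nucleus under ER stress, had 220 reads and 1.16 FPKM (1.02 to 1.33) in Col-0. For Ler-0 it had 903 reads and 4.11 FPKM (3.85 to 4.39), and the ratio was 3.53 (3.04 to 4.11). NAC103 (chromosome 5, 25633536 to 25635781, minus strand), known as a target of BZIP60 that activates further genes of the response, had 5 Col-0 reads and 11 Ler-0 reads. Its levels of 0.0291 FPKM (0.00945 to 0.0680) and 0.0551 FPKM (0.0275 to 0.0986) overlapped, and the ratio of 1.89 (0.606 to 6.95) did not show a difference at this depth.

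TIN1 and BI-1 were both higher in the Ler-0 library. TIN1 (chromosome 5, 25784404 to 25786307, plus strand) had 22840 reads and 157 FPKM (155 to 159) in Col-0. For Ler-0 it had 42837 reads and 253 FPKM (251 to 255), and the ratio was 1.61 (1.59 to 1.64). Its level per kilobase of exon was 16.7 times that of BZIP60 for Col-0 and 5.48 times for Ler-0, and its FPKM 19.5 and 6.39 times. BI-1 (chromosome 5, 19136023 to 19137942, plus strand), an ER membrane protein that restrains cell death, had 1304 reads and 8.88 FPKM (8.41 to 9.38) in Col-0. For Ler-0 it had 3817 reads and 22.4 FPKM (21.7 to 23.1), and the ratio was 2.52 (2.36 to 2.68).

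To place these ratios among all loci, the log2 ratio of FPKM + 1 was centred on its median of 0.062 over the 6656 loci at FPKM 1 or more in both libraries. On this scale, which understates the ratio of low genes, a value of 1 is 2-fold. BZIP60 stood at 2.11, BI-1 at 1.18, NAC062 at 1.18, TIN1 at 0.62, BZIP28 at 0.20, BZIP17 at 0.16, IRE1B at 0.060, IRE1A at -0.0037, NAC103 at -0.026 and BZIP49 at -0.17. On this scale 3 of the 10 genes showed an excess of 2-fold or more in Ler-0 and 0 showed one in Col-0, against 11.3% and 10.3% of the 9562 expressed loci and 3.24% and 2.97% of all loci. BZIP49, with an FPKM ratio of 0.409, was not among them because the added 1 outweighs its levels. Only BZIP60 was past 4-fold, a size reached by 3.44% of expressed loci in the Ler-0 direction and by 2.22% in the other. The median was 0.18 over the 10 genes and 0.62 over the 7 expressed, beside 0.060 over all expressed loci. Of the expressed loci, 96.9% had a lower ratio than BZIP60, 91.3% than BI-1, 91.2% than NAC062, 78.6% than TIN1 and 46.7% than IRE1A.

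**Figure D2:**
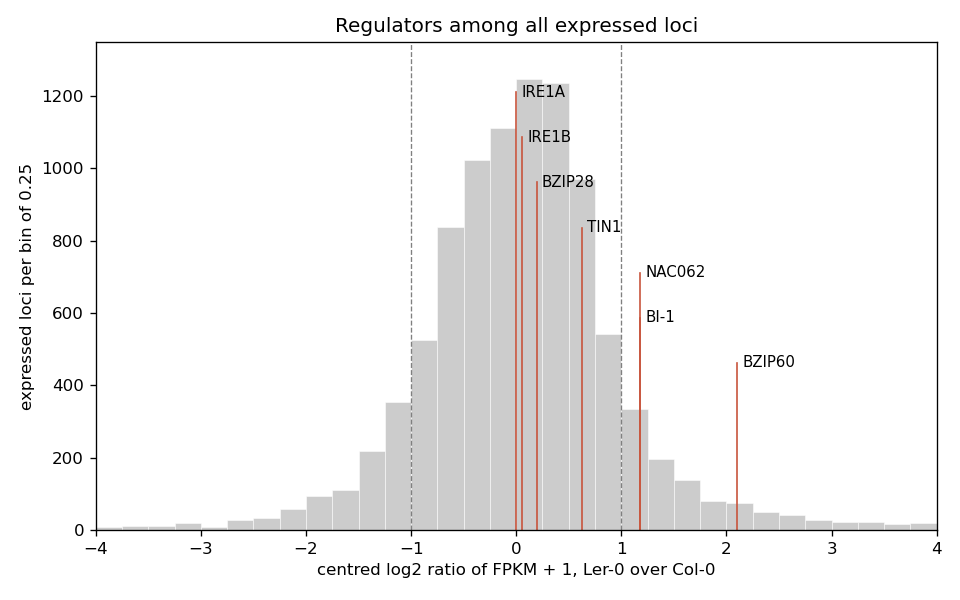
Number of expressed loci per bin of centred log2 ratio (grey bars, range -4 to 4 shown), with red lines at the 7 expressed genes; line height has no meaning, and dashed lines mark 2-fold. IRE1A, IRE1B and BZIP28 lie in the middle of the distribution, and BZIP60 at 2.11 lies in its right tail.

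Neighbouring loci and copies were looked for around the 10 genes. Listed loci overlapped 0 of them, and 0 had a near-identical copy. The loci next to the 3 genes past 2-fold gave values of their own. Beside BZIP60, AT1G42980, which encodes a formin homology protein, had 1.16 FPKM for Col-0 and 1.23 for Ler-0, and the PLATZ factor gene AT1G43000 had 0.623 and 1.62. Beside NAC062, AT3G49540 begins 765 bases away on the opposite strand and was among the most abundant transcripts, with 7524 FPKM for Col-0, 10443 for Ler-0 and a centred log2 ratio of 0.41. On the other side of NAC062 the F-box gene AT3G49520 stood at 0.157 and 0.964 FPKM. Beside BI-1, LIL3:2 stood at 0.354 and 0.228 FPKM and the Bax inhibitor family gene AT5G47130 at 0.0263 and 0.0565.

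Of 12 genes that process or assist the regulators, 0 were past 2-fold either way on the centred scale of FPKM + 1. That scale understates the ratios of low genes. The shares of expressed loci were 11.3% in the Ler-0 direction and 10.3% in the other, and those of all loci 3.24% and 2.97%. The median centred log2 ratio of the 12 was 0.041. Of the 12, 8 were under FPKM 1 in both libraries and 4 were expressed, beside 9562 of all 33322 loci. S1P, the site-1 protease that cuts BZIP28, had 0.214 FPKM for Col-0 and 0.383 for Ler-0, giving a ratio of 1.79 (1.35 to 2.39), and AT4G20310, a peptidase of the M50 family, had 5 and 23 reads, a ratio of 3.96 (1.47 to 13.3). RLG1 (RNL), the RNA ligase that rejoins the cut BZIP60 RNA, stood at 0.644 and 1.78 FPKM, giving a ratio of 2.76 (2.48 to 3.07). On the centred scale with its added 1 this was 0.69, the highest of the 12. The IRE1-like AT3G11870 rested on 8 and 27 reads, a ratio of 2.90 (1.28 to 7.39), and the NAC089 gene on 9 and 9.

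The other 7 partners had ratios on both sides of 1. The G protein subunit AGB1 had 1.06 FPKM for Col-0 and 0.956 for Ler-0, the translation kinase GCN2 2.27 and 2.39, and the co-chaperone BAG7 0.447 and 0.550. The light-response factor HY5 had 17 and 18 reads. Of the nuclear factor Y subunits, NF-YA4 had a ratio of 0.672 (0.455 to 0.988), NF-YB3 of 2.92 (1.41 to 6.63) and NF-YC2 of 1.70 (1.23 to 2.39), with 64, 10 and 57 reads in Col-0. In the RefSeq annotation NF-YC2 (AT1G56170) shares 1417 bases at 100% identity with the locus AT1G56180. GCN2 shares 946 bases at 100% identity with AT3G59400, so the reads of both are uncertain. Whether these are overlaps of the annotated genes or copies was not checked. The intervals of AGB1, GCN2, BAG7 and HY5 all included 1.

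Genes that fold proteins in the ER, the textbook output of the response and targets of its bZIP factors, are given for comparison. Of 26 such genes 14 had an excess of 2-fold or more in Ler-0 and 2 had one in Col-0, with a median of 2.02, against 11.3% and 10.3% of expressed loci. The list is not independent evidence, since these genes were already known to be higher in Ler-0 when it was written. On the centred scale the highest were BIP2 (36.3-fold, 34.1 to 38.6) and BIP1 (24.1-fold, 22.7 to 25.5), Hsp70 chaperones of the ER, which match each other at 94.1% identity and may share reads. Without the added 1 the ratio of their relative BIP3 was higher, at 81.9 (60.3 to 114), on a Col-0 level of 0.204 FPKM. At the other end UGGT (EBS1), which tags misfolded glycoproteins, had a ratio of 0.0667 (0.0600 to 0.0740) and the disulfide isomerase gene PDIL5-1 one of 0.248 (0.190 to 0.321). In this list 13 of 26 genes were past 4-fold in Ler-0, against 3.44% of expressed loci. Of the 10 genes of the main set, 3 of them under FPKM 1 in both libraries, BZIP60 alone was. In the folding list P58IPK, UTR3 and PDIL2-1 each overlap another locus, so their reads are uncertain.

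Of 12 genes of ER-associated degradation, which clears misfolded proteins, 5 had an excess of 2-fold or more in Ler-0 and 0 had one in Col-0. The shares of expressed loci were 11.3% and 10.3%, and the median of the 12 was 0.60. This list too was chosen with earlier results of these data known and is not independent evidence. The derlin DER2.1 (26.6-fold, 23.8 to 30.0) and HRD3A (EBS5), the partner of the HRD1 ligase (17.0-fold, 16.1 to 17.9), were highest. DER2.1, DER2.2 and EBS7, which was past 2-fold in Ler-0, each overlap another locus, so their reads are uncertain. The mannosidase MNS4 (-0.021) and the derlin DER2.2 (0.093) had the lowest centred log2 ratios.

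**Figure D3:**
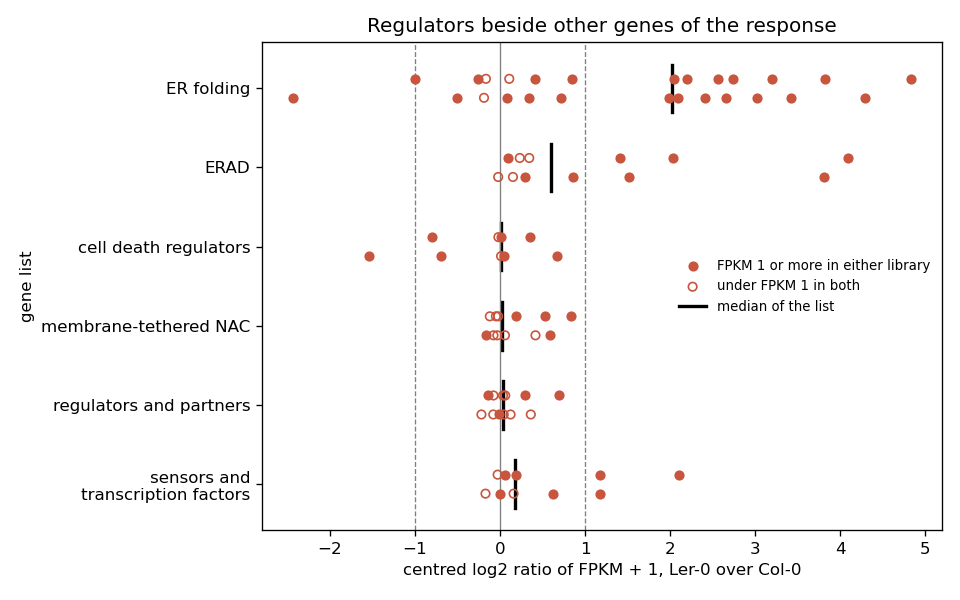
Centred log2 ratio of each of the 10 genes and of the genes in 5 other lists. Points are filled where FPKM was 1 or more in either library and open where it was lower in both. Black bars are list medians and dashed lines mark 2-fold. The folding list has a median of 2.02 and the 10 genes one of 0.18. The row named for sensors and transcription factors includes TIN1 and BI-1.

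Relatives of BI-1 and other cell death regulators were also listed. Of these 9, 0 had an excess of 2-fold or more in Ler-0 and 1 had one in Col-0, against 11.3% and 10.3% of expressed loci. Their median was 0.014. The highest were the vacuolar processing enzyme GAMMA-VPE (0.67), which overlaps another locus, and the co-chaperone BAG6 (0.35). The DCD-domain gene AT5G42050 was lowest at -1.53, with 3.29 FPKM for Col-0 and 0.546 for Ler-0, followed by LFG5 (-0.79), a BI-1 relative. Of 12 other membrane-tethered NAC genes 0 were past 2-fold either way on the centred scale of FPKM + 1, with a median of 0.019. The shares of expressed loci were 11.3% in the Ler-0 direction and 10.3% in the other, and those of all loci 3.24% and 2.97%. Without the added 1, NAC016 had a ratio of 5.29 (3.95 to 7.21) at 0.255 and 1.35 FPKM, and NAC014 had one of 2.85 (2.16 to 3.82) at 0.271 and 0.774 FPKM. NAC016 (0.84) and NAC013 (0.58) were highest and NAC068, or NTM1 (-0.16), and NAC053 (-0.12) lowest. NAC013 overlaps another locus.

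Marker genes of pollen and photosynthesis genes were both detected. Of all 33322 loci 9562 were expressed. All 10 genes of the tube-forming vegetative cell and all 9 sperm cell genes were expressed, with medians of -0.33 and 0.35. The ends of these lists were CPK34 (1.75), RBOHJ (1.07), ACA9 (-1.11) and VGDH1 (-1.20), and DAZ2 (1.59), MGH3 (1.18), GEX2 (-0.95), which overlaps another locus, and GEX3 (-1.15). Summed FPKM of the vegetative list was 23725 for Col-0 and 20501 for Ler-0, and that of the sperm list 219.9 and 312. Single sperm genes ran from 0.980 to 112 FPKM in Col-0 and from 2.18 to 138 in Ler-0. Of 10 photosynthesis genes 9 were expressed, with a summed FPKM of 63.1 for Col-0 and 62.7 for Ler-0 and a median of -0.43. The most abundant was LHCB1.1, at 28.9 and 33.1 FPKM, above the Col-0 levels of BZIP60 and BI-1. The ratios ran from RCA (0.62) and LHCB1.2 (0.34) to RBCS1A (-0.99) and RBCS1B (-1.24). Of 9 tapetum genes 1 was expressed, AT1G75920 (0.22), with EXL6 at 0.20, AMS at -0.42 and AT5G07230 at -0.10, a median of -0.0051, and sums of 2.47 and 3.05. The 5 cytosolic heat stress genes summed to 12.0 and 14.4 FPKM, with a median of -0.10, from HSP70B (0.73) and HSP101 (0.35) to HSP90.1 (-0.17) and HSP17.6II (-0.76). AMS and HSP101 each overlap another locus. The part of other tissue in the values of BZIP60, NAC062 and BI-1 was not tested.

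The ratios of the 10 genes were also computed under other scalings. BZIP60 ran from 1.74 to 2.21 on the log2 scale, BI-1 from 0.95 to 1.28, TIN1 from 0.61 to 0.72 and BZIP28 from 0.17 to 0.30. NAC062, which is low in Col-0, ran from 0.53 with a pseudocount of 5 to 1.66 with 0.1. IRE1A, at -0.011 to 0.097, and NAC103, at -0.030 to 0.19, changed sign and stayed near 0.

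**Figure D4:**
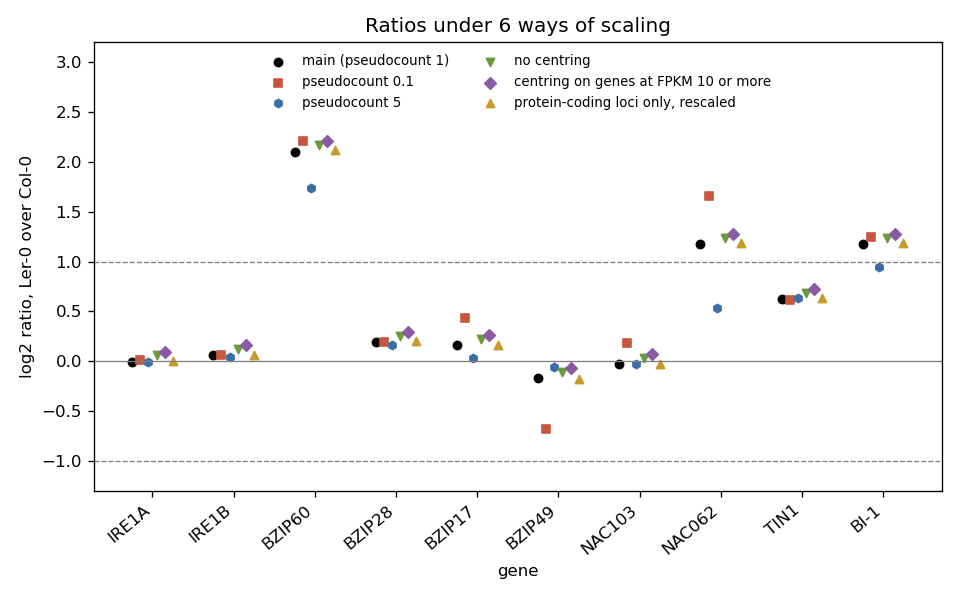
Log2 ratio of Ler-0 over Col-0 for each of the 10 genes under 6 scalings (symbols), with dashed lines at 2-fold. BZIP60 stays above the 2-fold line under each of them, and NAC062 and BI-1 drop below it with a pseudocount of 5, at 0.53 and 0.95.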

How the data were processed

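Mature pollen RNA, depleted of rRNA, was sequenced with a ScriptSeq kit, per the labels' protocols. Subread and the build TAIR10 are named in the submitters' processing notes. The treatment of strand, read pairs and reads with several alignments is not given in the sources used here. Per the file headers, the authors deposited FPKM for each locus. FPKM times end minus start was a whole multiple of 1 step in 100% of values (tolerance 0.01), so reads were recovered. They summed to 76488187 in Col-0 and 88952509 in Ler-0, with 7803 and 8415 loci at FPKM 1 or more. FPKM 1 in a gene of 1 kb is 76.5 and 89.0 reads, and 3 reads, the floor for a count of 0, are 0.0392 and 0.0337 FPKM there. TAIR10 is a Col-0 genome, so Ler-0 reads matched it less well where the ecotypes differ.

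Intervals are exact 95% Poisson for levels and Clopper-Pearson for ratios (scipy 1.17.1), and cover counting error only. With 1 library per ecotype the planned analysis had no test. The pseudocount was 1, and the thresholds were 2-fold and 4-fold. Symbols, exons and sequences came from RefSeq TAIR10.1, which held 32834 of the 33322 loci and all 10 genes; exon lengths are from that annotation, whose gene ends differ from those of the deposited tables. BLAST 2.17.0 was used to look for near-identical copies (95% identity over 50% of the gene). The procedure was tested on simulated reads, where the 2-fold rule missed lowered genes more often than raised ones. The ERSE spacings were set after the promoter windows had been seen. The genes and lists were chosen with earlier results of these data known. Genes named are the 10, all 12 regulators and partners, the 2 highest and 2 lowest of each other list, and loci next to genes past 2-fold. Some others are named for a ratio, an overlap or a promoter motif. The tRNA locus beside TIN1 was added after its values were seen. Alternatives covered the pseudocount, the centring, protein-coding loci alone, a filter on FPKM, the threshold, and exon length.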

Additional observations from a re-analysis of the deposited data

How the results depend on the processing

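The count of 10 genes with a 2-fold excess in Ler-0 (3) became 1 with a pseudocount of 5, which shrinks the ratios of low genes, and 1 when 4-fold was asked for instead of 2-fold; BZIP60 was that gene in both. It was 3 under each other alternative, and the number higher in Col-0 was 0 under every alternative run. With a pseudocount of 5 the degradation genes past 2-fold fell from 5 to 3. With a pseudocount of 0.1, which widens the ratios of low genes, 2 of the regulators and partners and 2 of the membrane-tethered NAC genes passed 2-fold, against 0 of each. The median subtracted moved from 0.062 to -0.039 when centred on loci at FPKM 10 or more, a shift common to all genes. The median over the 10 genes ran from 0.11 to 0.62, the last over the 7 expressed genes alone. The median of the folding genes ran from 0.89 with a pseudocount of 5 to 2.39 with 0.1, and that of the degradation genes from 0.36 with a pseudocount of 5 to 1.46 over expressed genes alone. No paired analysis was possible because there was a single library for each ecotype. Depth limits NAC103 and BZIP49, which rest on 5 to 21 reads.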

Other observations

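The following grouping by annotation was made after values were seen and is a description of these libraries. Among 63 loci whose RefSeq product name matched a search for bZIP factors, 24 were expressed, beside 9562 of all 33322 loci. Of these 24, 2 had an excess of 2-fold or more in Ler-0 and 2 had one in Col-0. Of all expressed loci 11.3% and 10.3% did, so these counts are near the background. The median centred log2 ratio of the 24 was -0.082. BZIP60 had the highest ratio of the 24. By FPKM on the gene span it was 12th of the 63 for Col-0 and 4th for Ler-0, while BZIP28 was 8th in both. The most abundant bZIP transcript in both libraries was AT1G35490, with 1592 FPKM for Col-0 and 841 for Ler-0. The other bZIP gene past 2-fold in Ler-0 was AT5G44080 (1.47), and those past it in Col-0 were bZIP52 (-1.64) and BZO2H1 (-1.33).

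Among 111 loci named as NAC factors, 20 were expressed, with a median of 0.51. An excess of 2-fold or more was seen for 3 of the 20 in each ecotype, against 11.3% (Ler-0) and 10.3% (Col-0) of expressed loci. NAC062 had the second highest ratio of the 20, below AT1G60240 (1.43) and above NAC095 (1.16). AT1G60240 was also the most abundant of the 111 with 100.3 FPKM for Col-0 and 285 for Ler-0. NAC062 was 11th of the 111 by FPKM for Col-0 and 5th for Ler-0, and NAC068, outside the 111, lay above it in Col-0. The 3 higher in Col-0 were NAC019 (-1.37), NAC105 (-1.05) and NAC3 (-1.03).

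Promoters of the folding genes were searched for the same motifs as those of the 10 genes of the main set. CCACG was in 13 of 26 folding genes, 1 of 12 degradation genes and 4 of those 10, beside 15.0% of protein-coding promoters. The core ACGT was in 21 of 26, 7 of 12 and 7 of 10, beside 44.2%. The UPRE core, in 1.27% of protein-coding promoters, was in 4 of the 26: CRT1A, HSP90.7, PDIL1-1 and UGGT. Their ratios of Ler-0 over Col-0 FPKM were 10.4, 0.587, 8.06 and 0.0667. CRT1A and PDIL1-1 were thus higher in Ler-0 and HSP90.7 and UGGT higher in Col-0. ERSE was in 4 of the 26 (P58IPK, HSP90.7, PDIL1-2 and UGGT) and its plant form in 8, which adds BIP3, CRT1A, PDIL1-1 and UTR3. Of all protein-coding promoters 0.307% and 0.700% held these forms. Of the degradation genes HRD3A (SEL1A) held an ERSE and HRD1B the plant form. ERSE-II matches were in 0 of the 26 windows. The motif pUPRE-III was in 4 of the 26 (BIP3, CRT3, PDIL1-3 and UTR1) and in 0 of the 12 degradation genes, beside 6.38% of protein-coding promoters.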
